A study of Mus musculus with 2 samples.

Results

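Chil1, Chil3, Chil4 and Retnla are 4 mouse genes of secreted proteins that are widely read as marks of alternatively activated macrophages. They were taken by symbol from a count table of 30538 genes, and all 4 were found. They were chosen by their symbols after the count ratio of every gene between the genotypes was known. The RNA came from spleen cells that carried CD11b, lacked Ly6G and were low in Ly6C, which the labels call resident macrophages. Mice had received 100000 Listeria monocytogenes by vein, and at day 3 roughly 100000 cells were collected per library. One library came from Ch25h-/- mice, without cholesterol 25-hydroxylase, the enzyme that makes 25-hydroxycholesterol, and one from C57BL/6 mice; both genotypes were infected, and no uninfected cells were analysed here. The age, the number of mice behind each library and any pooling are not given in the sources used here.

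The mammalian chitinase-like proteins share the fold of glycoside hydrolase family 18 and bind sugars, but lack the catalytic residue that true chitinases use to cut chitin. Chil3 encodes Ym1 and Chil4 its close relative Ym2; mouse Chil1 encodes the counterpart of human CHI3L1. Retnla encodes RELM-alpha, a cysteine-rich protein of the resistin family. In mouse macrophages, interleukin-4 and interleukin-13 acting through STAT6 induce Chil3 and Retnla together with Arg1 and Mrc1. Chil3 is also transcribed by Ly6C-high monocytes and by neutrophil precursors, and human CHI3L1 is stored in neutrophil granules.

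Chil3 (ENSMUSG00000040809) and Chil4 (ENSMUSG00000063779) lie 33926 bases apart on the minus strand of GRCm38 chromosome 3, at 106147554 to 106167564 and at 106201490 to 106219507. Their main transcripts in GENCODE M21 are both 1539 bases long, and 94.4% of 1538 aligned bases are identical. Over the first 1197 coding bases, 56 bases differ. Among stretches of 60 coding bases that begin at a codon start, coding bases 502 to 561 had the most differences. They are shown as a part where reads of the pair can be told apart. Bases outside the coding sequence were not searched for such a stretch. Capitals mark the 10 bases that differ.
Chil3: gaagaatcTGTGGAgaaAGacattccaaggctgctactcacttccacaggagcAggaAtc
Chil4: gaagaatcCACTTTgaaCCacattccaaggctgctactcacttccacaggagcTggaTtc
Elsewhere the transcripts run together for up to 136 bases without a difference. Of all 50-base windows of the Chil3 transcript, 18.5% occur unchanged in Chil4, and of all 100-base windows 3.75%. The read length and the treatment of reads that match both genes are not given in the sources used here, so the Chil4 count is uncertain. No 50-base window of Chil3 occurs in the main transcripts of Chil1, Chil5, Chil6 or Chia1.

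The promoters of the chromosome 3 pair are close copies too. Windows of 300 bases (250 before to 50 after the RefSeq start, GRCm38.p6) were compared for the 4 genes, all of which were in the promoter table. Of 271 aligned bases, 251 were identical between Chil3 and Chil4 (92.6%), whereas Chil3 and Retnla shared 56.8% and Chil3 and Chil1 53.6% of aligned bases. Aligned stretches of 200 bases are shown for that pair, and the 200 bases before the RefSeq start for Retnla. These genes are shown since their ratios ran in opposite directions. GENCODE M21 starts Retnla earlier, at 48842551, so the end of its stretch, with TATAAA, lies inside the gene as annotated there. Capitals mark matches to any of 5 motifs searched on both strands. The first was the core promoter motif TATAAA, the second AGGAAG, a core of ETS factors such as PU.1, and the third TTGCNNAA, which fits C/EBP factors. The other motifs were palindromes with TTC on one side and GAA on the other, either 4 bases apart (called STAT6-type here) or 3 bases apart (STAT-type).
Chil3, chr3:106167537-106167736, minus strand: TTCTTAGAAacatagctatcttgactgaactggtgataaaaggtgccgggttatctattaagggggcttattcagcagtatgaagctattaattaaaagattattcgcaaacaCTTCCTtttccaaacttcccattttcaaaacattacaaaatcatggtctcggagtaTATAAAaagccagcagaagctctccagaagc
Chil4, chr3:106219480-106219679, minus strand: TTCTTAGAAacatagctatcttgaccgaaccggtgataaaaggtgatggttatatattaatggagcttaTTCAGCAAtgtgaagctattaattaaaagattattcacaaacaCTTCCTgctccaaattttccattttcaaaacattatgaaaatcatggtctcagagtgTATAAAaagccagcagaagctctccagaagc
Retnla, chr16:48842409-48842608, plus strand: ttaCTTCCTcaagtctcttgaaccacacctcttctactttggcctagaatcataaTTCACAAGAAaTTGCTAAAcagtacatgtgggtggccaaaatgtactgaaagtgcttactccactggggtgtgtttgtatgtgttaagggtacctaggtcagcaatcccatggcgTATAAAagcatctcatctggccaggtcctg
Chil3 and Chil4 shared a STAT-type match, an AGGAAG match and TATAAA, and Chil4 alone of the pair had a TTGCNNAA match. TATAAA began 31 bases before the RefSeq start in Chil4 and 30 before it in Retnla. In Chil3 it spans the RefSeq start, and the Chil3 stretch shown runs 28 bases past that start. This contrast within the pair depends on the annotation. GENCODE M21 gives the same start as RefSeq for Chil3 but starts Chil4 at 106219507, inside its TATAAA match. By GENCODE M21, TATAAA therefore spans the start in both Chil3 and Chil4. Retnla also held a STAT6-type match, followed after 1 base by a TTGCNNAA match. The Chil1 window held only an AGGAAG match, after the start. Among 32851 promoter windows of the table, 13.6% held TATAAA, 6.95% a STAT6-type match, 8.3% a STAT-type match, 35.4% AGGAAG and 10.8% TTGCNNAA. These matches describe letters and do not show that a factor binds there.

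The libraries held 15986392 gene counts for Ch25h-/- and 16957371 for C57BL/6. Each genotype has 1 library, so nothing could be set against replicates and no test was run. Ratios are those of the 2 libraries, Ch25h-/- over C57BL/6, and their exact 95% intervals cover counting error only. Levels are CPM, counts per 1000000 after TMM scaling. Genes whose mean level reached 1 CPM count as measured, and a measured gene was called when its ratio was at least 2-fold with the interval wholly on 1 side of 0 on the log2 scale. The targeted gene Ch25h had 0 counts in the Ch25h-/- library and 3 counts in the C57BL/6 library (exact Poisson interval 0.619 to 8.77), too few to check the labels. Macrophage and lymphocyte genes were both present: Adgre1, which encodes the macrophage antigen F4/80, had 23.4 CPM in the Ch25h-/- library and 39.7 CPM in the C57BL/6 library, and Gzmb, a granzyme gene of cytotoxic lymphocytes, 7429 and 4356 CPM.

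The 4 genes split: 2 of 4 were called higher in the Ch25h-/- library, where 2.07% of all 11972 measured genes were called higher, and 1 of 4 was called lower, where 5.77% were. The genes were chosen with these ratios known, so the counts describe them and support nothing. Chil3 and Chil1 were above 1 CPM in both libraries. Chil4 reached the minimum only through the Ch25h-/- library and Retnla only through the C57BL/6 library, so each could pass only by differing.

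Chil3 was by far the most abundant of the 4. It had 11728 counts in the Ch25h-/- library and 8187 counts in the C57BL/6 library, or 740 and 478 CPM. Its ratio was 1.55-fold, a log2 ratio of 0.63 (95% interval 0.59 to 0.67), which was under the 2-fold limit although counting error was small. Chil3 made up 0.0734% of the Ch25h-/- counts (Clopper-Pearson interval 0.0720 to 0.0747%) and 0.0483% of the C57BL/6 counts (0.0472 to 0.0493%). By CPM it ranked 134th of the measured genes in the Ch25h-/- library and 297th in the C57BL/6 library.

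Chil4 was barely present beside its neighbour. It had 33 counts (2.08 CPM) in the Ch25h-/- library and 12 counts (0.701 CPM) in the C57BL/6 library, a 2.97-fold ratio with a log2 ratio of 1.57 (0.58 to 2.66). The interval includes ratios under 2-fold. For each 1000 counts of Chil3 there were 2.81 counts of Chil4 in the Ch25h-/- library (exact interval 1.94 to 3.95) and 1.47 in the C57BL/6 library (0.757 to 2.56), and these intervals overlap. With both genes summed, so that the division of reads between them plays no part, the log2 ratio was 0.63 (0.59 to 0.67). That is the value of Chil3, since Chil4 adds only 33 and 12 counts. The sum does not bring back reads that may have been left out for matching both genes.

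Chil1 (ENSMUSG00000064246, chromosome 1, 134182176 to 134190181, plus strand) had the highest ratio of the 4, although Retnla lay further from 0. It had 398 counts (25.1 CPM) in the Ch25h-/- library and 120 counts (7.01 CPM) in the C57BL/6 library, a 3.58-fold ratio with a log2 ratio of 1.84 (1.54 to 2.15). Of the measured genes, 99.8% had a lower log2 ratio than Chil1. Its interval lies wholly above the Chil3 interval, so in counting terms the ratios of these chitinase-like genes were unequal.

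Retnla (ENSMUSG00000061100, chromosome 16, 48842551 to 48844461, plus strand) ran the other way. It had 7 counts (0.442 CPM) in the Ch25h-/- library and 36 counts (2.10 CPM) in the C57BL/6 library, a log2 ratio of -2.25 (-3.66 to -1.06). The interval stays beyond 2-fold but spans a wide range of ratios, since it rests on 43 counts in all. No annotated gene overlaps any of the 4 genes in GENCODE M21. In a bulk library, fewer cells that transcribe a gene and less RNA per cell cannot be told apart.

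**Figure D1:**
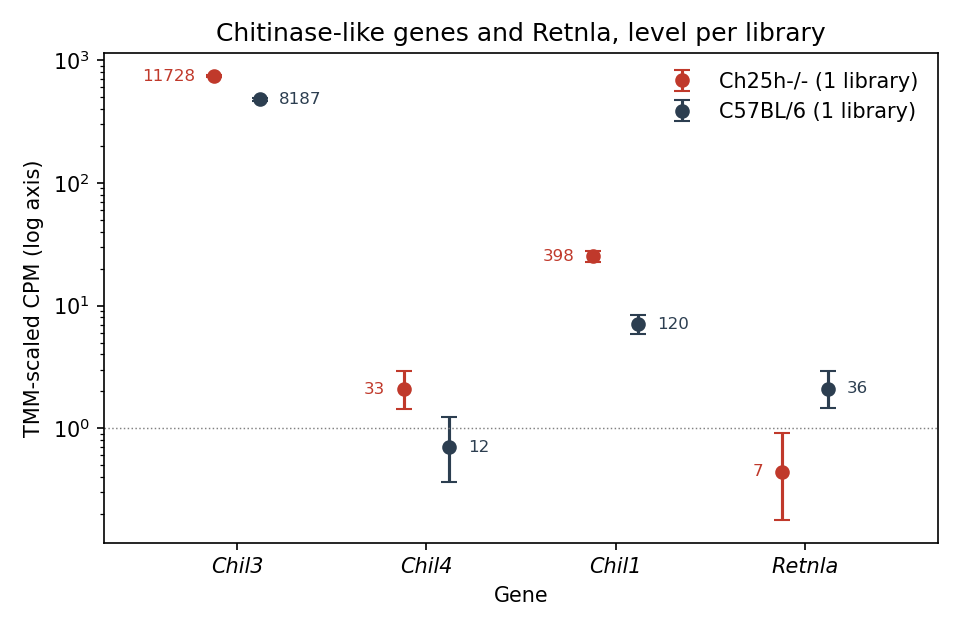
Level of each gene in TMM-scaled CPM (log axis) in the Ch25h-/- library (red, left) and the C57BL/6 library (dark, right); bars are exact 95% Poisson intervals of the count, printed beside each point, and the dotted line marks 1 CPM. Chil3 stands far above the others, Chil4 and Chil1 are higher in the Ch25h-/- library, and Retnla is lower there, with 7 counts against 36.

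Levels of different genes were compared per length, as RPKM (CPM per kilobase of merged exons). In the Ch25h-/- library Chil3 had 454 RPKM, Chil1 8.96, Chil4 0.739 and Retnla 0.738 RPKM, and the counting intervals of Chil4 (0.509 to 1.04) and Retnla (0.297 to 1.52) overlapped. In the C57BL/6 library the order was Chil3 at 293 RPKM, Retnla at 3.51 (2.46 to 4.86), Chil1 at 2.50 (2.07 to 2.99) and Chil4 at 0.249 RPKM, and the intervals of Retnla and Chil1 overlapped. The merged exons are longer than the main transcript for Chil1 (2804 against 1687 bases), Chil4 (2817 against 1539) and Chil3 (1632 against 1539). Per length of the main transcript instead, Chil4 had 1.35 RPKM and Chil1 14.9 RPKM in the Ch25h-/- library, and 0.456 and 4.16 RPKM in the C57BL/6 library. On that scale Chil1 had a higher value than Retnla in the C57BL/6 library, but one still inside the counting interval of Retnla. Per merged exons, the Chil3 level was 615 times that of Retnla in the Ch25h-/- library and 83.5 times in the C57BL/6 library.

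**Figure D2:**
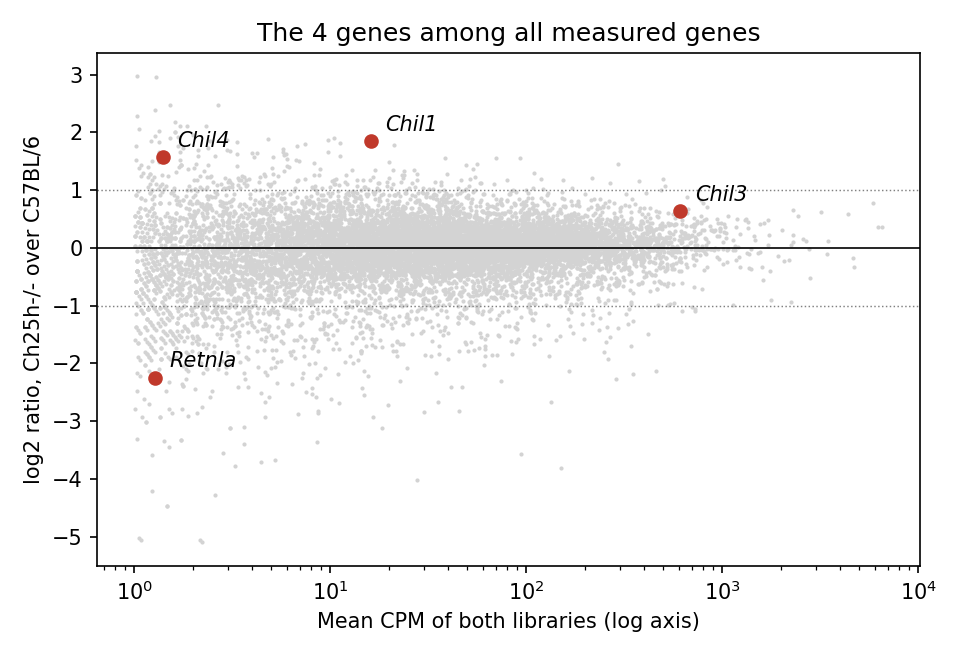
Log2 ratio of all 11972 measured genes (grey, Ch25h-/- over C57BL/6) against their mean CPM (log axis), with the 4 genes in red and dotted lines at 2-fold. Chil1 lies at the upper edge of genes at its level, Chil3 lies inside the 2-fold lines, and Chil4 and Retnla lie where low counts spread the ratios widely.

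The measured genes nearest to each of the 4 by distance of log2 CPM in the 2 libraries were found as a description. With 2 libraries any gene of like level and ratio is near. Nearest to Chil3 were Nkg7, a granule protein gene of cytotoxic lymphocytes, with 740 CPM in the Ch25h-/- library and 494 CPM in the C57BL/6 library (distance 0.05), and Adamts14, a secreted metalloprotease gene, with 705 and 466 CPM (0.08). Nearest to Chil1 were Dsp, which encodes desmoplakin, and Sgol1, which protects centromere cohesion, at distances of 0.44 and 0.45. Serpinb1c had the same counts as Chil4, and Car1, a carbonic anhydrase gene of red cells, the same counts as Retnla. Such ties are common at low counts. Next were Hcn2 for Chil4 (34 and 12 counts in the Ch25h-/- and C57BL/6 libraries) and Ankrd55 for Retnla (7 and 33 counts).

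Other glycoside hydrolase 18 genes gave no call among the 4 that were measured, where 2.07% of all measured genes were called higher and 5.77% lower. Chit1, which encodes the true chitinase chitotriosidase and lies next to Chil1 on chromosome 1, had 42 counts in the Ch25h-/- library and 26 counts in the C57BL/6 library (log2 ratio 0.80, 0.06 to 1.57). Chid1 stood at 0.30 (0.07 to 0.53), with 334 and 293 counts. Ctbs, which encodes the lysosomal enzyme di-N-acetylchitobiase, stood at 0.21 (-0.15 to 0.56), with 139 and 130 counts. Ovgp1, the oviductal glycoprotein gene, stood at -0.66 (-1.45 to 0.10), with 24 and 41 counts. The intervals of Ctbs and Ovgp1 include 0.

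Chil5 and Chil6, further chitinase-like genes of the chromosome 3 cluster, were under the minimum of 1 CPM but were seen in the Ch25h-/- library alone. Chil5 had 21 counts in the Ch25h-/- library and 0 counts in the C57BL/6 library. Against a floor of 3 counts for the C57BL/6 library, Chil5 was at least 7.56-fold higher, and with the error of its own 21 counts the exact interval of the log2 ratio begins at 2.49. Chil6 had 7 counts in the Ch25h-/- library and 0 counts in the C57BL/6 library, at least 2.52-fold higher on the same floor, with an interval that begins at 0.64. Chia1, the acidic chitinase gene between them, had 4 counts in each library.

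The resistin family was not uniform either. Retnlg, the neighbour of Retnla 28160 bases away and a gene of neutrophils and their precursors, had 545 counts (34.4 CPM) in the Ch25h-/- library and 338 counts (19.8 CPM) in the C57BL/6 library, a log2 ratio of 0.80 with an interval that begins at 0.60. Its interval and that of Retnla lie on opposite sides of 0. The Retnla and Retnlg transcripts are 84.5% identical over 587 aligned bases, and no 50-base window of Retnla occurs in Retnlg. Retn had 1 count in the Ch25h-/- library and 0 in the C57BL/6 library, and Retnlb had 0 counts in both.

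**Figure D3:**
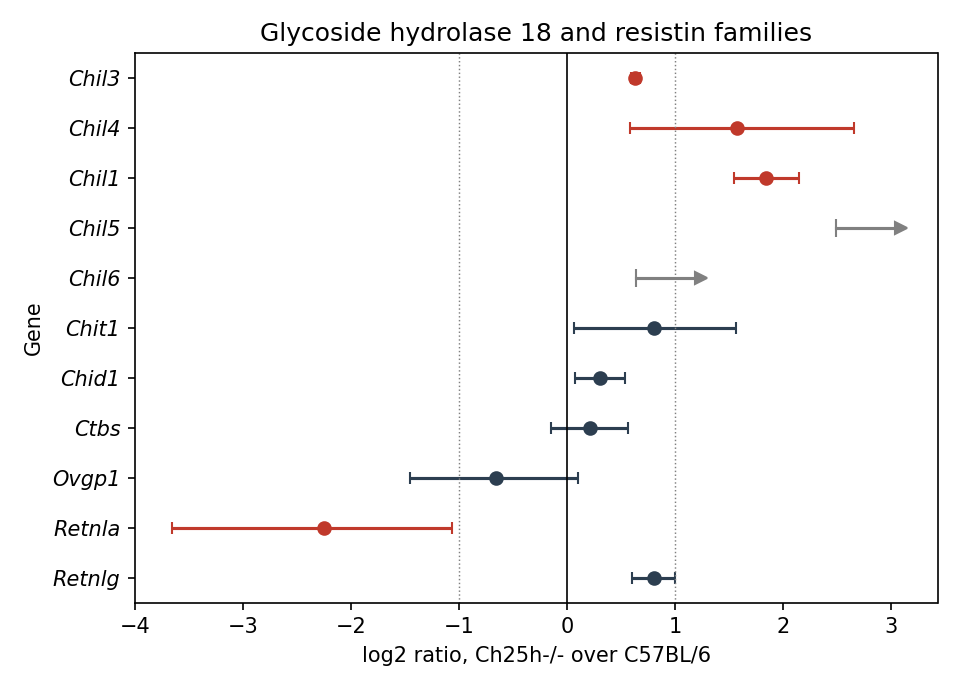
Log2 ratio, Ch25h-/- over C57BL/6, with exact 95% counting intervals for the 4 genes (red) and measured relatives (dark); grey arrows run from the lower end of the interval for Chil5 and Chil6, which had 0 counts in the C57BL/6 library, and dotted lines mark 2-fold. Chil3, Chil1 and Chil4 lie right of 0 and Retnla lies left of 0, opposite to Retnlg.

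Surrounding genes were examined because the 4 genes sit in family clusters. Of 12 other protein-coding genes within 300 kb of Chil3 or Chil4, 7 were measured and none was called, with log2 ratios from -0.66 to 0.58. Of 14 within 300 kb of Chil1, 7 were measured and none was called, with ratios from -0.30 to 0.80. Of 7 around Retnla, 3 were measured, and Cip2a, which encodes an inhibitor of protein phosphatase 2A, was called higher (879 counts in the Ch25h-/- library and 393 counts in the C57BL/6 library, log2 ratio 1.27). Over all measured genes, 2.07% were called higher and 5.77% lower.

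Of the reported binding partners of the Chil1 protein, 5 of 6 were measured and 1 was called lower, against 5.77% of all measured genes. Il13ra2, the decoy receptor of interleukin-13 reported to bind it in mice, had 0 counts in both libraries, with floors of 0.189 CPM for Ch25h-/- and 0.175 CPM for C57BL/6. Its partner Tmem219 had 19.6 CPM in the Ch25h-/- library and 23.2 CPM in the C57BL/6 library (log2 ratio -0.24), Cd44 289 and 233 CPM (0.31), Lgals3 99.0 and 74.2 CPM (0.42), and Ager 3.60 and 4.62 CPM (-0.36). Ptgdr2, the prostaglandin D2 receptor gene of type 2 lymphocytes, eosinophils and basophils, was the called one, with 17 counts in the Ch25h-/- library and 41 counts in the C57BL/6 library (-1.16, interval -2.07 to -0.31).

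The interleukin-4 and interleukin-13 pathway that induces Chil3 and Retnla in macrophages was read from a list of 17 genes. The cytokine genes themselves had few counts: Il33 had 8 counts in the Ch25h-/- library and 20 in the C57BL/6 library, Il4 had 3 and 2, Il13 had 3 and 7, and Il25 had 0 in both. Of 13 measured genes, 2 were called lower and none higher, where 5.77% and 2.07% of all measured genes were. The median log2 ratio was -0.38, against 0.01 over all measured genes, with 5 genes above 0 and 8 below. The summed level of the list was 3518 CPM in the Ch25h-/- library and 3671 CPM in the C57BL/6 library. The transcription factor genes Irf4 (37.2 CPM in the Ch25h-/- library and 132 CPM in the C57BL/6 library, -1.83) and Klf4 (29.0 and 94.7 CPM, -1.71) were the called ones. The receptor gene Il4ra had 241 and 382 CPM (-0.67), the most abundant gene Jak1 1028 and 888 CPM (0.21), and Stat6 306 and 335 CPM (-0.13).

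Of 16 other targets of alternative activation, 15 had a log2 ratio below 0, the side of Retnla. Cdh1 lay above 0 (0.13, interval -0.33 to 0.58), and among the 15 the intervals of Clec7a and Matk include 0. The list was written with its earlier result known and is no independent evidence. All 16 were measured, and 9 were called lower and none higher, where 5.77% and 2.07% of all measured genes were. The median log2 ratio was -1.53, against 0.01 over all measured genes, and -0.70 when only genes averaging 5 CPM or more were kept. Ccl24, an eosinophil chemokine gene, had 4 counts in the Ch25h-/- library and 33 counts in the C57BL/6 library (-2.93, interval -4.89 to -1.44). The arginine transporter gene Slc7a2 had 7.39 and 52.7 CPM (-2.83), the mannose receptor gene Mrc1 4.36 and 25.4 CPM (-2.54), and the transglutaminase gene Tgm2, the most abundant, 296 and 455 CPM (-0.62). Classical activation genes, induced by microbial products and interferon-gamma, had 4 of 14 called lower and none higher, with a median of -0.36. In that list Il1b had 162 and 427 CPM (-1.40), Il6 8.52 and 21.9 CPM (-1.36) and Il12b 10.4 and 26.2 CPM (-1.33).

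Chil3 and Chil1 are also genes of neutrophils and monocytes, so markers of these cells are given beside them. Of 16 neutrophil markers, all measured, 6 were called higher and none lower, where 2.07% and 5.77% of all measured genes were. The median log2 ratio was 0.80, with 14 markers above 0 and 2 below. Their summed level was 2705 CPM in the Ch25h-/- library and 1721 CPM in the C57BL/6 library, a 1.57-fold ratio. The summed ratios of NK cell markers and of T cell markers were as large, at 1.61-fold each. Lck made up most of the T cell sum, with 320 of 352 CPM in the Ch25h-/- library and 186 of 219 CPM in the C57BL/6 library. Among the other T cell markers, the intervals of Cd3e, Cd3d and Cd3g include 0. That of Cd4 lies below 0 and that of Cd8a above 0. Ly6g, the antigen gated out in the sort, had 41 counts in the Ch25h-/- library and 8 counts in the C57BL/6 library (2.47). The granule genes Mmp9 (64.2 and 28.3 CPM, 1.18), Ltf (364 and 168 CPM, 1.12) and Ngp (646 and 322 CPM) followed. Mpo (-0.41) and Csf3r (-0.10) had intervals below 0, and those of Elane (0.16) and Prtn3 (0.18) include 0. Of 9 Ly6C-high monocyte markers, 2 were called higher and none lower, with a median of 0.37, and their summed level was 2771 CPM in the Ch25h-/- library and 2191 CPM in the C57BL/6 library. Ccr2, the chemokine receptor gene of these monocytes, had 691 and 304 CPM (1.19), and Vcan 65.7 and 32.5 CPM (1.02). Fn1 (-0.59), Hp (-0.28) and Plac8 (-0.16) had intervals below 0. The part of neutrophil or monocyte RNA in the Chil3 and Chil1 values was not tested.

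Beside Retnla, the summed levels of eosinophil, dendritic cell and red pulp macrophage markers were lower in the Ch25h-/- library, though not for each marker. Of all measured genes, 5.77% were called lower and 2.07% higher. Among 7 eosinophil markers, 4 were called lower and none higher. Their summed level was 9.78 CPM in the Ch25h-/- library and 31.3 CPM in the C57BL/6 library. The granule protein genes Epx (7 and 104 counts, -3.78) and Prg2 (12 and 165 counts, -3.67) were lowest, while the surface receptor genes Siglecf (28 and 32 counts, -0.08) and Ccr3 (44 and 42 counts, 0.18) had intervals that include 0. All 8 measured conventional dendritic cell markers of 11 were called lower, with a summed level of 407 CPM in the Ch25h-/- library and 1540 CPM in the C57BL/6 library. Esam stood at -2.66, Batf3 at -2.14 and the actin-bundling gene Fscn1 at -2.13. Under the minimum level, Xcr1 (6 and 0 counts in the Ch25h-/- and C57BL/6 libraries) and Clec9a (13 and 5 counts) had more counts in the Ch25h-/- library. Of 12 red pulp macrophage markers, 4 were called lower and none higher, with a summed level of 198 CPM in the Ch25h-/- library and 319 CPM in the C57BL/6 library. The iron exporter gene Slc40a1 lay on the other side of 0 (0.72, interval 0.38 to 1.07). The part of these cells in the Retnla value was not tested. The lists overlap, since Irf4 is on both the interleukin-4 and the dendritic cell list and Retnlg is also a neutrophil marker.

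**Figure D4:**
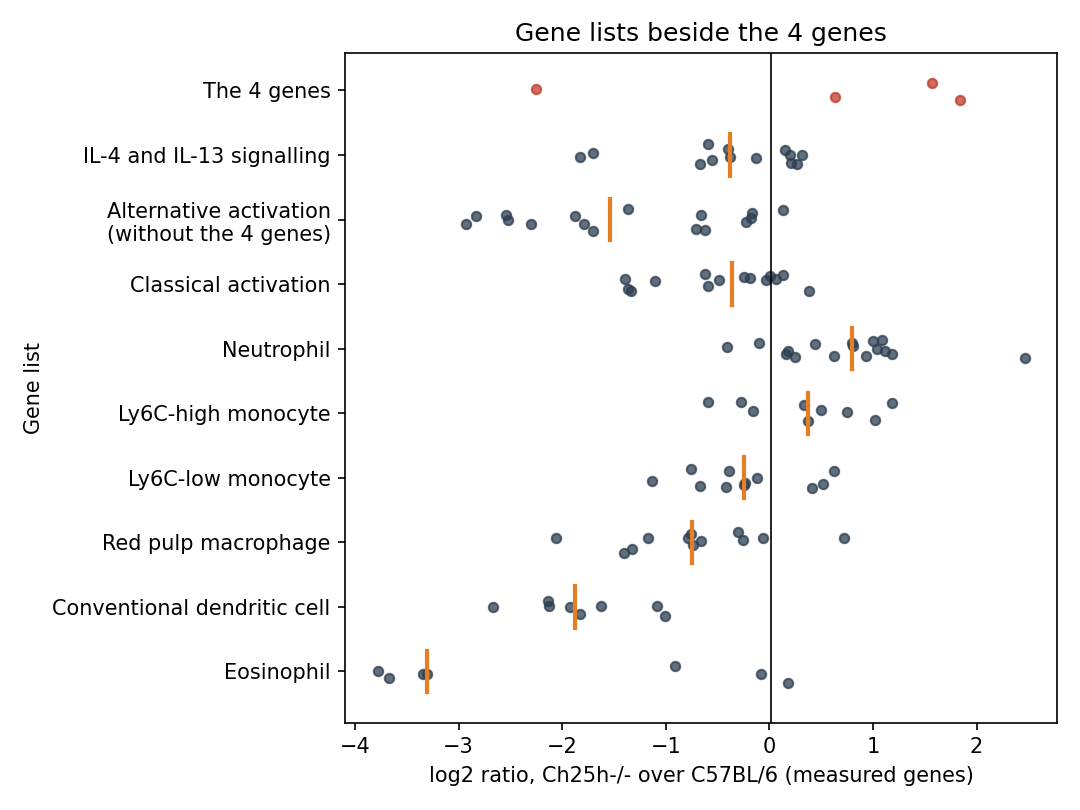
Log2 ratio, Ch25h-/- over C57BL/6, of the measured genes of each list (points, spread vertically at random), with the list median (orange bar) and the median of all measured genes at 0.01 (black line). Chil3, Chil4 and Chil1 lie right of 0, as do the medians of neutrophil and Ly6C-high monocyte markers (0.80 and 0.37). Retnla lies left of 0, as do the medians of all other lists shown. Among these are alternative activation (-1.53, and -0.70 from 5 CPM), classical activation (-0.36), dendritic cells (-1.88) and eosinophils (-3.30). Lists not shown lie on both sides, with NK cell markers at 0.80 and B cell markers at -0.68.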

How the data were processed

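Per the labels' protocols, RNA was isolated with TRIzol, and libraries were prepared with a KAPA HyperPrep kit. GSNAP, featureCounts and Subread 1.5.2, edgeR 3.26.8 and 2 names of a build (GRCm38, mm10) are listed, without roles, per the submitters' processing notes; the strand setting is not given in the sources used here. The deposited values are unnormalized read counts by gene, analysed without change.

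CPM were computed with TMM factors (edgeR 4.0.16, R 4.3.3). The intervals of ratios are Clopper-Pearson intervals, turned from the share of a gene's counts that fell in one library, and came from scipy 1.17.1 in Python 3.11.15; no molecular identifiers are named, so reads may repeat a molecule, and intervals and floors cover counting error only. The steps were tested on simulated counts with counting error only, which is the error that the intervals assume. That test does not bear on differences between mice or libraries. Gene positions and exon lengths came from GENCODE M21 (GRCm38), promoters from RefSeq (GRCm38.p6), and alignments from Biopython 1.88. Adgre1 and Adgre4, listed under older symbols, were found by ID, and Ear11 was not used here.

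The 4 genes and the 19 lists were chosen with earlier results of these data known. Named are the 4 genes, Ch25h, neighbours within 300 kb, the 2 nearest genes to each, measured genes of lists of up to 8 genes, and in longer lists the 3 largest ratios and the most abundant gene. A few genes that this takes are not reported here, others are left unprinted for length, and Adgre1, Stat6 and genes under the minimum were named after their values were seen. The alternatives included scaling by total counts, by upper quartile or by DESeq2 1.42.0 size factors, omission of abundant genes of other cells, a prior count of 2, filters and a stricter interval. Marker lists of marginal zone macrophages, Ly6C-low monocytes, basophils and mast cells, type 2 lymphocytes, NK, T and B cells had median log2 ratios of -1.08, -0.25, -0.14, 0.37, 0.80, 0.25 and -0.68.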

Additional observations from a re-analysis of the deposited data

How the results depend on the processing

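The ratios of Chil1, Chil3, Chil4 and Retnla, and of Chil3 and Chil4 summed, kept their direction under all 6 alternatives tried on them, and other scalings moved them by at most 0.03 on the log2 scale. A scaling shifts all ratios alike, a prior count only makes them smaller in size, and the stricter interval leaves them unchanged. The kept directions are therefore no independent check. When the counting interval had to lie wholly beyond 2-fold, Chil4 (log2 ratio 1.57) was no longer called, because its interval begins at 0.58; all measured genes then gave 67 higher and 318 lower calls, against 248 and 691. A filter at 5 CPM gave 120 higher and 347 lower calls, and removes Chil4 and Retnla; it took the median of the alternative activation list to -0.70, against -1.53, by leaving fewer genes. Without a filter beyond 1 count there were 435 higher and 1031 lower calls, and the dendritic cell median was -1.62, against -1.88. No paired analysis was possible because each genotype has 1 library. Depth limits the values of Chil4, Retnla, Chil5 and Chil6, which rest on 45, 43, 21 and 7 counts in all.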
